A study of Homo sapiens with 4 samples.

Results

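Annexin and galectin genes were followed in OCI-AML3, a human cell line from acute myeloid leukaemia whose mutant NPM1 protein sits in the cytoplasm, after retroviral transfer of the long noncoding RNA LONA. The genes were 6 annexins (ANXA1, ANXA2, ANXA4, ANXA5, ANXA6 and ANXA11) and 4 galectins (LGALS1, LGALS3, LGALS8 and LGALS9), 10 of 67062 gene entries in the count table. They were chosen from these families, with their fold changes and adjusted p between these groups known. The list leaves out expressed family genes such as ANXA7 and LGALS12. PIG-LONA cells held the pMSCV-PIG vector, with the full LONA sequence behind an RNA polymerase II promoter, and a PGK promoter that drives puromycin resistance and GFP. PIG-EMPTY cells held that vector with no insert, so both groups carry puromycin resistance and GFP. Cells of both groups were sorted for GFP, and poly(A) RNA was sequenced from 2 independent transductions per group, so the replicates are separate transductions of 1 cell line. The series title names myeloid differentiation as the process that LONA was tested for. The level of LONA itself was not analysed here.

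Annexins bind negatively charged membrane phospholipids when calcium rises, and serve in membrane repair, vesicle traffic and the control of inflammation. Galectins bind beta-galactoside sugars on glycoproteins, and they act in the cytoplasm as well as outside the cell, which they reach without a signal peptide. In myeloid cells both families are known as abundant proteins whose levels change with maturation, and ANXA1 is known as a granule and cytoplasmic protein of neutrophils and monocytes.

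Of the 10 genes, 6 were lower in PIG-LONA than in PIG-EMPTY at an adjusted p under 0.05, 0 were higher and 4 did not pass (edgeR quasi-likelihood test over all genes, Benjamini-Hochberg adjustment). The 6 were ANXA1, LGALS1, LGALS3, ANXA4, ANXA2 and ANXA6. The background was 6.43% of 15918 tested genes called, 3.50% lower and 2.93% higher. Among 11292 genes with a mean count of at least 100, as all 10 had, 4.19% were lower and 4.06% higher. With the DESeq2 Wald test 4 of the 10 were lower, against 2.08% of genes with an adjusted p. Because the genes were listed with this contrast known, their calls are a description, nothing is read from their share, and no p is given for them. The fall in ANXA1 amounted to 31.4%, that in LGALS1 to 26.3% and that in LGALS3 to 26.1%, whereas ANXA2, ANXA4 and ANXA6 fell by 11.6%, 11.7% and 11.3%. ANXA5, ANXA11, LGALS8 and LGALS9 did not pass. All 10 genes entered the test, and the lowest count of any of them in any library was 148. The median log2 fold change was -0.18 over the 10 genes and 0.00 over all tested genes. Without PIG-EMPTY replicate 1 the number called lower was 3, and it was also 3 without PIG-EMPTY replicate 2.

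**Figure D1:**
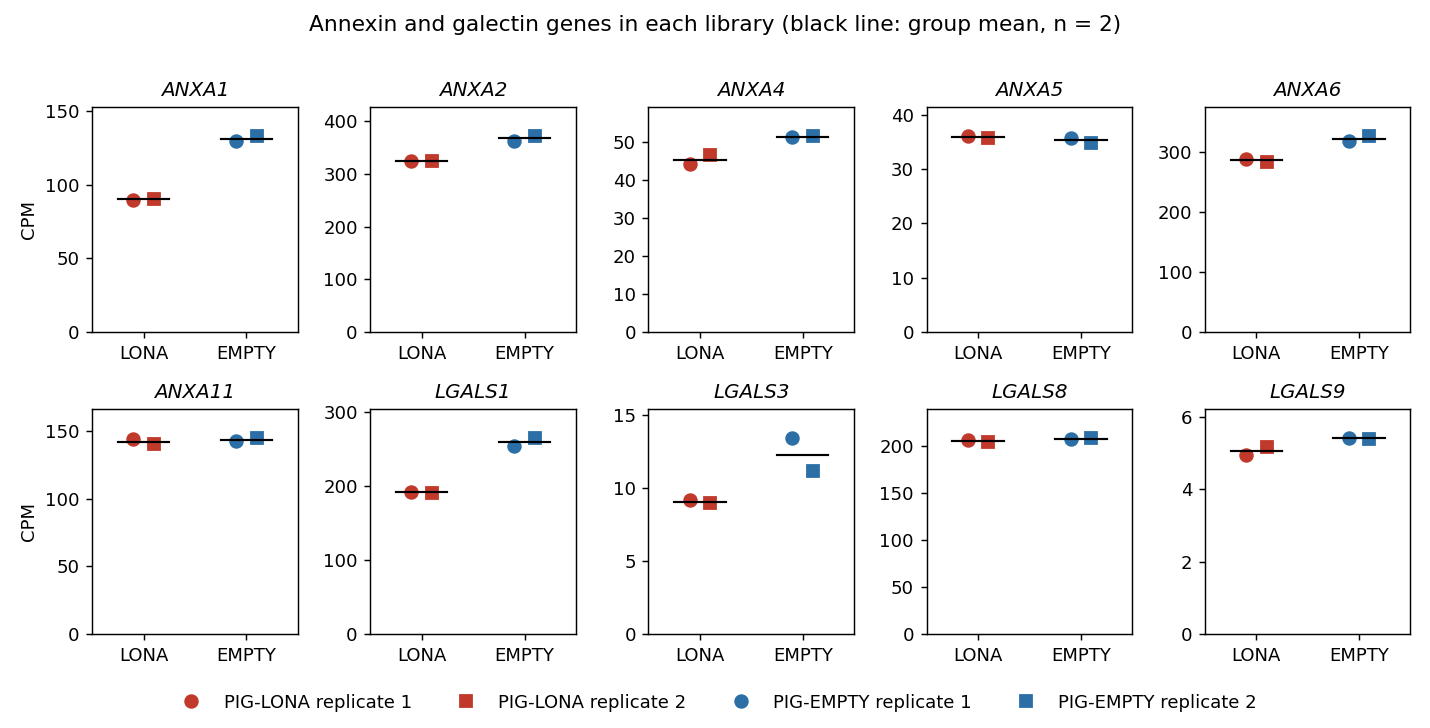
CPM of each annexin and galectin gene in the 4 libraries, PIG-LONA on the left and PIG-EMPTY on the right, with circles for replicate 1, squares for replicate 2, a black line for the group mean and axes that start at 0. The PIG-LONA points of ANXA1 lie at 90.0 CPM against 129.5 and 133 CPM in PIG-EMPTY, while the points of ANXA11 interleave.

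The 10 genes lie on 10 chromosomes and 0 of them on chromosome 6, whose 799 tested genes had a median log2 fold change of 0.17. Proximal promoters are shown for 3 genes that fell, ANXA1, ANXA2 and LGALS3, and for ANXA5, which did not pass, because together they span the range of change. They were picked after the values were seen, from genes with a single RefSeq entry. Each window is the 250 bases before the RefSeq start on GRCh38.p14, read 5′ to 3′ on the gene's strand. The windows are chr9:73151615-73151864 (plus strand) for ANXA1, chr15:60397987-60398236 (minus strand) for ANXA2, chr14:55129002-55129251 (plus strand) for LGALS3 and chr4:121696981-121697230 (minus strand) for ANXA5. Capitals mark matches, on either strand, to 5 motifs searched: the TATA box TATAAA, the GC box GGGCGG, the PU.1 core GAGGAA, the C/EBP motif TTNCNNAA and the AP-1 motif TGANTCA.
ANXA1: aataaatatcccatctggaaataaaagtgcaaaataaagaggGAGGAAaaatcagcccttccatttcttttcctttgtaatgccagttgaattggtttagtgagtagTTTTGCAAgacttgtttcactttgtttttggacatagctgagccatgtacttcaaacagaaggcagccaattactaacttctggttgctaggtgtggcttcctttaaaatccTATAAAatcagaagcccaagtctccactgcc
ANXA2: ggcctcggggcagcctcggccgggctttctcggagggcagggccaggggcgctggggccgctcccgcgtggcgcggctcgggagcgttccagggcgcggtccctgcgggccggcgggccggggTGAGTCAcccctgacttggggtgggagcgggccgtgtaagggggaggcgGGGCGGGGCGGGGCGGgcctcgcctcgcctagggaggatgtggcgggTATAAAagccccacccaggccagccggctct
LGALS3: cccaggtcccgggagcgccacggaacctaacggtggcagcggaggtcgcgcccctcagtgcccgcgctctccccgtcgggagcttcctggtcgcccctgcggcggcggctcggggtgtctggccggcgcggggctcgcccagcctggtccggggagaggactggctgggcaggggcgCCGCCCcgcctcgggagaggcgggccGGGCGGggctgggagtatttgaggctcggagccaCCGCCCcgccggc
ANXA5: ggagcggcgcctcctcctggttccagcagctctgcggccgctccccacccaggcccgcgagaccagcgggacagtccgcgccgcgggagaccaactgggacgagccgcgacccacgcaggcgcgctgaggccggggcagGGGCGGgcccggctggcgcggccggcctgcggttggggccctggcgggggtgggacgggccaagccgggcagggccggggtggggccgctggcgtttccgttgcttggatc

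The ANXA1 window differed from the other 3 in base composition, with 38.4% G and C against 78.0% for ANXA2 and 78.8% each for LGALS3 and ANXA5. The median of all 35116 windows in the table was 58.0%. ANXA1 held a TATA box with its first base at -31 from the start, a C/EBP match at -143 and a PU.1 core at -208, and no GC box. ANXA2 also held a TATA box at -31, with an AP-1 match at -127 and 3 GC boxes at -78, -73 and -68 that overlap one another. LGALS3 held 3 GC boxes, at -73, -47 and -13, and ANXA5 held 1, at -111. Among all windows, 10.7% held TATAAA, 42.6% GGGCGG, 23.6% GAGGAA, 33.2% TTNCNNAA and 6.57% TGANTCA. Genes not shown also held such matches, whether called or not. Among those that did not pass, the LGALS8 window with 29.2% G and C held TATA box, PU.1 core and C/EBP matches. ANXA11 held matches to these 3 motifs among its windows, and LGALS9 held none of the 5 motifs. Among genes that fell, an ANXA4 window held a PU.1 core and an ANXA6 window a C/EBP match. These matches describe letters only. Promoter entries were matched for 9 of the 10 genes, and LGALS1 is named only.

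ANXA1, the glucocorticoid-induced annexin that restrains inflammation through formyl peptide receptors, had the largest fall among the 10. Its gene spans 73151757 to 73170393 on chromosome 9 (ENSG00000135046.14, GENCODE release 29, GRCh38, plus strand). ANXA1 had 90.0 and 90.0 CPM in the PIG-LONA libraries, against 129.5 and 133 CPM in the PIG-EMPTY libraries. The groups did not overlap, and the gap between them was many times the spread within either. A spread taken from 2 libraries is itself uncertain. The log2 fold change was -0.54 ± 0.04 (SE), with means of 90.0 ± 0.04 CPM in PIG-LONA and 131 ± 2.51 CPM in PIG-EMPTY (SD, n = 2 each).

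ANXA2 forms a membrane-bound complex with S100A10 and is known as a plasminogen receptor of monocytes (ENSG00000182718.16, chromosome 15, 60347134 to 60402883, minus strand). It had 325 and 324 CPM in PIG-LONA, against 363 and 371 CPM in PIG-EMPTY. ANXA6, an annexin with a duplicated core that binds cholesterol-rich membranes (ENSG00000197043.14, chromosome 5, 151100712 to 151157882, minus strand), had 289 and 283 CPM in PIG-LONA, against 319 and 327 CPM in PIG-EMPTY. ANXA4, which assembles on membranes at wounds (ENSG00000196975.16, chromosome 2, 69644425 to 69827100, plus strand), had 44.2 and 46.7 CPM in PIG-LONA, against 51.4 and 51.6 CPM in PIG-EMPTY. In all 3 both PIG-LONA libraries lay below both PIG-EMPTY libraries. Their log2 fold changes were nearly equal, -0.18 ± 0.03 for ANXA2, -0.17 ± 0.04 for ANXA6 and -0.18 ± 0.05 for ANXA4 (SE). Counting could mix ANXA2 with its processed pseudogenes, since 5.91% of the 50-base words of its transcripts also occur in transcripts of other genes, ANXA2P2 most often. ANXA2P2 had 11.6 and 11.8 CPM in PIG-LONA, against 13 and 13.8 CPM in PIG-EMPTY (log2 fold change -0.20 ± 0.09, edgeR adjusted p = 0.196). The call of ANXA2 was lost without PIG-EMPTY replicate 2 (log2 fold change -0.16), and that of ANXA6 without either PIG-EMPTY library (-0.19 and -0.15). ANXA4 lost its call under 6 of 13 other settings.

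ANXA5, the phosphatidylserine binder used as a probe of dying cells (ENSG00000164111.15, chromosome 4, 121667955 to 121697113, minus strand), had 36.1 and 35.8 CPM in PIG-LONA, against 35.7 and 34.8 CPM in PIG-EMPTY. Both PIG-LONA libraries were above both PIG-EMPTY libraries, but by less than 1 CPM between the nearest ones. ANXA11, whose long amino-terminal part binds the calcium sensor PDCD6 (ENSG00000122359.18, chromosome 10, 80150889 to 80205572, minus strand), had 144 and 140.3 CPM in PIG-LONA, against 142.5 and 145 CPM in PIG-EMPTY. The groups of ANXA11 overlapped. Their log2 fold changes were 0.03 ± 0.05 for ANXA5 and -0.02 ± 0.04 for ANXA11 (SE).

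LGALS1 encodes galectin 1, a dimer-forming lectin that cross-links glycoproteins of leukocytes (ENSG00000100097.12, chromosome 22, 37675608 to 37679806, plus strand). It had 192 and 190.0 CPM in PIG-LONA, against 254 and 264 CPM in PIG-EMPTY. The groups did not overlap, and the log2 fold change was -0.44 ± 0.04 (SE). LGALS3 encodes galectin 3, the galectin with a collagen-like tail that macrophages make in quantity (ENSG00000131981.16, chromosome 14, 55124110 to 55145413, plus strand). It had 9.16 and 8.97 CPM in PIG-LONA, against 13.4 and 11.2 CPM in PIG-EMPTY. The PIG-LONA libraries lay close together and the PIG-EMPTY libraries apart. The log2 fold change of LGALS3, -0.44 ± 0.10, equals that of LGALS1 to 2 decimals, with a wider error. LGALS3 also had fewer reads, from 274 to 400 per library, against 5754 to 8589 for LGALS1. Without PIG-EMPTY replicate 1, the higher of the PIG-EMPTY libraries, LGALS3 stood at -0.30 and lost its call.

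LGALS8 and LGALS9 encode galectins with a pair of sugar-binding domains, galectin 8 being a sensor of damaged vesicles and galectin 9 a ligand of the receptor HAVCR2. LGALS8 (ENSG00000116977.18, chromosome 1, 236518000 to 236552981, plus strand) had 206 and 204 CPM in PIG-LONA, against 207.5 and 208 CPM in PIG-EMPTY. LGALS9 (ENSG00000168961.17, chromosome 17, 27629798 to 27649560, plus strand) had 4.95 and 5.15 CPM in PIG-LONA, against 5.41 and 5.39 CPM in PIG-EMPTY. In both genes the groups were apart but close, with log2 fold changes of -0.02 ± 0.04 for LGALS8 and -0.09 ± 0.13 for LGALS9 (SE). In all, 8 of the 10 genes had both PIG-LONA libraries below both PIG-EMPTY libraries, and ANXA5 had them above. Of all tested genes, 24.4% had the first arrangement and 23.7% the second. The value of LGALS8 is uncertain, since 21.6% of its exonic bases overlap HEATR1, a nucleolar gene on the opposite strand, and the strand setting of the counting is not given in the sources used here. HEATR1 had 240.2 and 260.3 CPM in PIG-LONA, against 245 and 247 CPM in PIG-EMPTY (log2 fold change 0.02 ± 0.04, edgeR adjusted p = 0.817). LGALS9 shares 13.2% of its 50-base transcript words with other genes, LGALS9C most often, which had 2 and 1 reads in PIG-LONA and 0 and 1 in PIG-EMPTY. Of the exonic bases of LGALS9, 5.145% overlap AC015688.4, a protein-coding gene on the same strand, whose level is not given here.

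**Figure D2:**
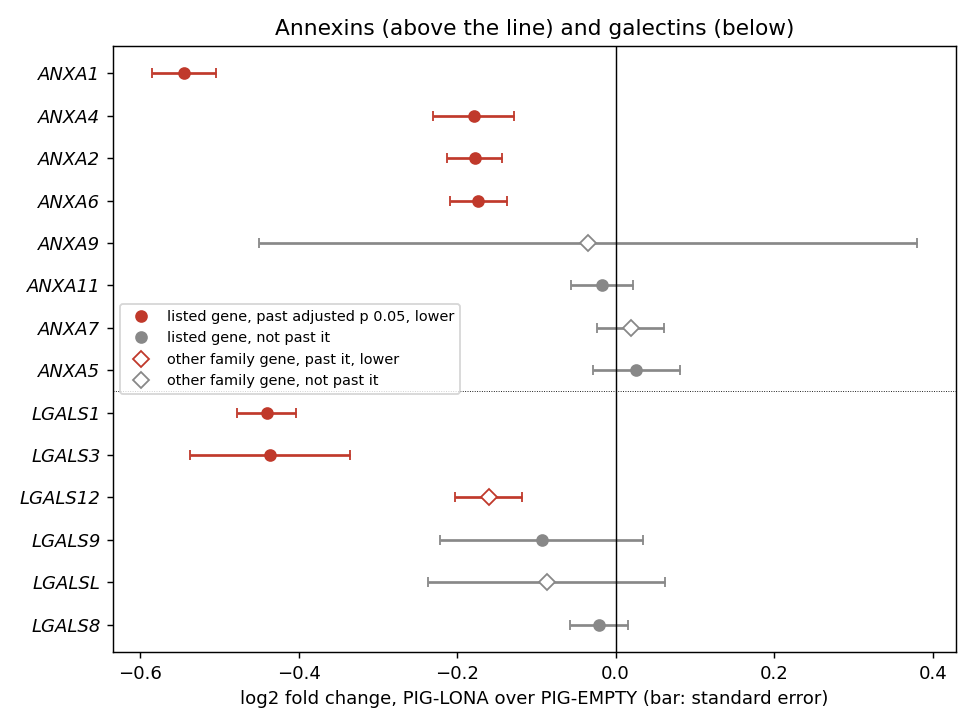
Log2 fold change of PIG-LONA over PIG-EMPTY (x axis, bar for the standard error) of the tested annexin genes above the dotted line and galectin genes below it. Filled circles are the 10 listed genes, open diamonds the other tested family genes, and red marks an adjusted p under 0.05 with a lower level. ANXA1, LGALS1 and LGALS3 lie between -0.54 and -0.44, and ANXA2, ANXA4, ANXA6 and LGALS12 between -0.18 and -0.16.

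Levels were compared between genes per length, as TPM over the union of annotated exons. LGALS1 was the highest of the 10, with 593 ± 13.5 TPM in PIG-LONA and 804.5 ± 29.1 TPM in PIG-EMPTY (SD, n = 2 each). ANXA6 followed with 179.8 ± 2.93 TPM in PIG-LONA and 203 ± 5.10 TPM in PIG-EMPTY, and ANXA2 with 125 ± 3.48 TPM in PIG-LONA and 142 ± 3.50 TPM in PIG-EMPTY. The order then differed between the groups in TPM, which depends on the exon lengths used (4561 bases for ANXA1 and 9710 for LGALS8). In CPM ANXA1 was below LGALS8 in both groups, with means of 90.0 against 204.9 in PIG-LONA and 131.2 against 207.9 in PIG-EMPTY. The LGALS8 value is also uncertain, for the overlap with HEATR1. ANXA1 had 65.8 and 68.8 TPM in PIG-LONA, below LGALS8 with 70.7 and 73.3 TPM there, whereas in PIG-EMPTY it had 96.3 and 100.0 TPM, above LGALS8 with 72.5 and 73.6 TPM. ANXA11 had 56.9 ± 0.79 TPM in PIG-LONA and 57.5 ± 1.05 TPM in PIG-EMPTY, and ANXA5 had 40.4 ± 1.05 TPM in PIG-LONA and 39.7 ± 0.42 TPM in PIG-EMPTY. Next came ANXA4 (14.0 ± 0.97 TPM in PIG-LONA and 15.9 ± 0.18 TPM in PIG-EMPTY) and LGALS3 (12.9 ± 0.22 TPM in PIG-LONA and 17.5 ± 2.17 TPM in PIG-EMPTY). These are the only neighbours in the order whose libraries overlapped, and they did so in PIG-EMPTY. LGALS9 was lowest, with 3.02 ± 0.18 TPM in PIG-LONA and 3.22 ± 0.02 TPM in PIG-EMPTY.

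Summed over the 6 annexins, the level was 476 and 492 TPM in PIG-LONA, against 547 and 564 TPM in PIG-EMPTY. ANXA1 made up 13.8% and 14.0% of that sum in PIG-LONA, against 17.6% and 17.7% in PIG-EMPTY. The shares of ANXA2 and ANXA6 differed less, with ANXA2 at 25.8% and 26.0% in PIG-LONA, against 25.5% and 25.6% in PIG-EMPTY. The 4 galectins summed to 669.9 and 692 TPM in PIG-LONA, against 879 and 918 TPM in PIG-EMPTY. LGALS1 supplied 87.1% and 87.1% of the sum in PIG-LONA, against 89.2% and 89.9% in PIG-EMPTY. The sum of these 4 is therefore close to the level of LGALS1 alone. Both sums leave out expressed genes of the families. LGALS12 had 139.2 ± 2.41 TPM in PIG-LONA and 155.4 ± 5.80 TPM in PIG-EMPTY, above LGALS8. ANXA7 had 109.8 ± 2.61 TPM in PIG-LONA and 108.4 ± 0.39 TPM in PIG-EMPTY (SD, n = 2 each).

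**Figure D3:**
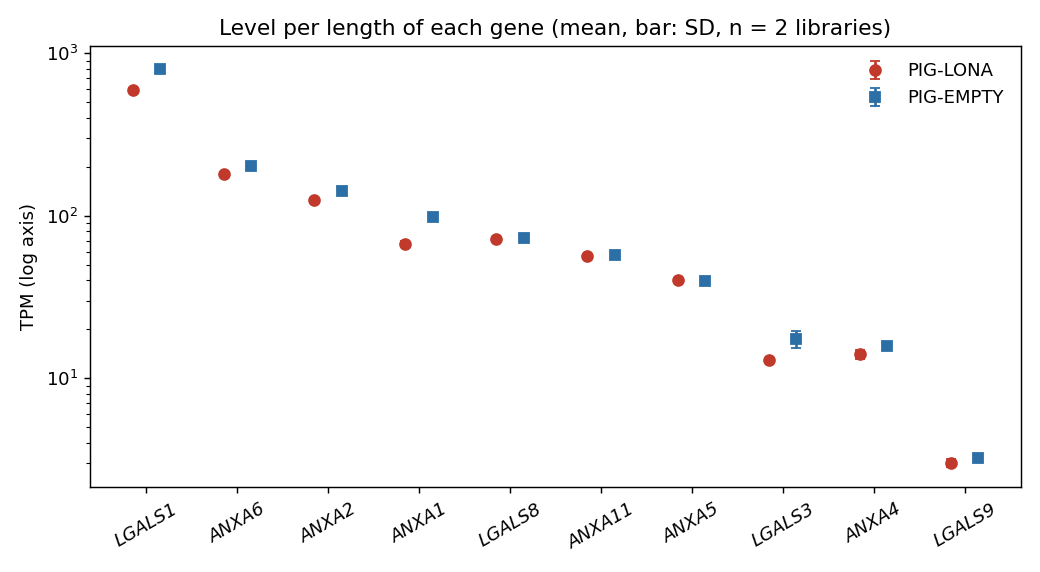
Level per length of each gene in TPM (log axis), as the mean and SD of the 2 libraries of PIG-LONA (red circles, left of each pair) and PIG-EMPTY (blue squares), ordered by the PIG-EMPTY level. LGALS1 stands highest at 593 TPM in PIG-LONA and 804.5 TPM in PIG-EMPTY, and ANXA1 is above LGALS8 in PIG-EMPTY and below it in PIG-LONA. That crossing does not hold in CPM, and LGALS8 is uncertain for its overlap with HEATR1.

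Other genes of the families were mostly silent. Of 7 further annexin genes, ANXA7 and ANXA9 were tested and neither passed. ANXA7 had 92.7 and 91.7 CPM in PIG-LONA, against 91.7 and 90.2 CPM in PIG-EMPTY (log2 fold change 0.02 ± 0.04, edgeR adjusted p = 0.875). ANXA9 had 17 and 13 reads in PIG-LONA, against 11 and 17 in PIG-EMPTY (edgeR adjusted p = 0.982). ANXA3 had 1 and 4 reads in PIG-LONA and 1 and 5 in PIG-EMPTY, ANXA8 had 2 and 1 in PIG-LONA and 1 and 6 in PIG-EMPTY, and ANXA8L1 had 1 and 0 in PIG-LONA and 0 and 0 in PIG-EMPTY. ANXA10 and ANXA13 had 0 reads in every library, which allows up to 0.101 CPM at 3 counts per library. Of 12 further galectin genes, LGALS12 and LGALSL were tested. LGALS12, a galectin of fat cells and myeloid cells (chromosome 11), had 93.6 and 91.7 CPM in PIG-LONA, against 101 and 106 CPM in PIG-EMPTY. It fell by a small amount (log2 fold change -0.16 ± 0.04, edgeR adjusted p = 0.0252), a call lost without either PIG-EMPTY library (adjusted p = 0.0974 without replicate 1 and 0.463 without replicate 2 in edgeR), with DESeq2 and with no filter on low counts. LGALSL, a related gene, had 4.14 and 4.03 CPM in PIG-LONA, against 3.86 and 4.77 CPM in PIG-EMPTY (edgeR adjusted p = 0.826). LGALS4 had 15 and 10 reads in PIG-LONA and 8 and 7 in PIG-EMPTY, LGALS9B had 0 and 1 in PIG-LONA and 0 and 0 in PIG-EMPTY, and 7 galectin genes had 0 reads throughout.

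The list of S100 partners of annexins held 5 genes, 4 S100 genes and AHNAK, the scaffold bound by S100A10. The 4 S100 genes had lower mRNA levels in PIG-LONA, and 0 of the list had higher ones. AHNAK did not pass (log2 fold change -0.07 ± 0.06, edgeR adjusted p = 0.597). S100A10, the partner of annexin A2, had 52.6 and 47.7 CPM in PIG-LONA, against 59.6 and 60.1 CPM in PIG-EMPTY (log2 fold change -0.26 ± 0.05, edgeR adjusted p = 0.00356). S100A11, the partner of annexin A1, had 169.6 and 154 CPM in PIG-LONA, against 177 and 182 CPM in PIG-EMPTY (-0.15 ± 0.04, edgeR adjusted p = 0.0433), a call lost under 6 of 13 other settings. Without PIG-LONA replicate 2 S100A11 stood at -0.08 (edgeR adjusted p = 0.172). S100A4 was at -0.34 ± 0.05 (edgeR adjusted p = 0.000188) and S100A6 at -0.21 ± 0.05 (edgeR adjusted p = 0.0068). The 4 lie on chromosome 1. The median log2 fold change of the list was -0.21, against 0.00 for all tested genes, of which 3.50% were lower and 2.93% higher, a background that applies to each list that follows. Without PIG-EMPTY replicate 2 the number lower was 2, and with no filter on low counts it was 1. ANXA2R, named for annexin A2 binding, had 7.52 and 6.94 CPM in PIG-LONA, against 7.42 and 6.87 CPM in PIG-EMPTY (edgeR adjusted p = 0.972).

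The receptors of annexin A1 were near absent. FPR1 had 2 and 5 reads in PIG-LONA and 0 and 1 in PIG-EMPTY, FPR2 had 0 and 1 in PIG-LONA and 5 and 0 in PIG-EMPTY, and FPR3 had 0 and 1 in PIG-LONA and 5 and 1 in PIG-EMPTY. Of the 6 tested genes in the list of annexin A1 receptors and lipid mediator enzymes, 1 fell and 0 rose, against 6.43% of all tested genes called, and the median was -0.20. Without PIG-LONA replicate 1, 1 rose. The gene that fell was ALOX5AP, the activating protein of leukotriene synthesis, with 51.8 and 50.4 CPM in PIG-LONA, against 65.0 and 62.8 CPM in PIG-EMPTY (log2 fold change -0.32 ± 0.05, edgeR adjusted p = 0.000207). Of 13 tested genes of phosphatidylserine exposure and membrane repair, 1 fell and 0 rose, a share close to the 6.43% called among all tested genes, and the median was 0.01. It was MYOF, which encodes the membrane repair protein myoferlin. MYOF had 25.1 and 30.8 CPM in PIG-LONA, against 34.1 and 34.3 CPM in PIG-EMPTY (-0.28 ± 0.07, edgeR adjusted p = 0.0227), and lost its call without PIG-LONA replicate 1, at -0.15, with DESeq2 and with no filter on low counts. Without PIG-LONA replicate 2 it stood at -0.44. Without PIG-LONA replicate 1 the list had 0 lower and 2 higher, and 2 fell without PIG-LONA replicate 2 or PIG-EMPTY replicate 2.

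Galectin ligands and counter-receptors went in both directions. Of 19 tested, 4 fell and 2 rose, and the median log2 fold change was -0.02. Fibronectin (FN1), a matrix ligand of galectins, had 45.2 and 51.7 CPM in PIG-LONA, against 77.8 and 79.9 CPM in PIG-EMPTY (-0.70 ± 0.05, edgeR adjusted p = 6.48e-08). The integrin subunit gene ITGAM was at -0.89 ± 0.11 (edgeR adjusted p = 3.96e-05) and the neuropilin gene NRP1 at -0.89 ± 0.14 (edgeR adjusted p = 0.00041). ITGAM is counted again among the myeloid markers below. The fourth, CD44, named after its values were seen, was at -0.12 ± 0.04 (edgeR adjusted p = 0.0423), a call lost under 5 of 13 other settings. The transferrin receptor gene TFRC rose, with 330.1 and 343 CPM in PIG-LONA, against 294 and 282 CPM in PIG-EMPTY (0.22 ± 0.04, edgeR adjusted p = 0.000588). SPN, which encodes the sialoglycoprotein CD43 and was also named after its values were seen, had 344 and 346 CPM in PIG-LONA, against 308 and 312 CPM in PIG-EMPTY (0.16 ± 0.03, edgeR adjusted p = 0.00768). Without PIG-EMPTY replicate 1 the number that rose was 1, and without PIG-EMPTY replicate 2 it was 0.

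Of 11 tested glycan branching and capping enzymes, which shape the sugars that galectins bind, 2 fell and 0 rose, with a median of -0.04. GCNT1, a branching enzyme of O-glycans, had 9.42 and 10.3 CPM in PIG-LONA, against 13.2 and 14.5 CPM in PIG-EMPTY (log2 fold change -0.49 ± 0.09, edgeR adjusted p = 0.0018). B3GNT2, which extends lactosamine chains, was at -0.14 ± 0.04 (edgeR adjusted p = 0.0409) and was no longer called under 5 of 13 other settings, among them the removal of either PIG-EMPTY library, which left 1 gene. Among 9 tested phosphatidylserine receptors and bridging proteins, 2 fell and 1 rose, with a median of -0.29. CD36, a scavenger receptor, had 140.3 and 141 CPM in PIG-LONA, against 172 and 173 CPM in PIG-EMPTY (-0.29 ± 0.04, edgeR adjusted p = 5.91e-05). The kinase receptor gene MERTK was at -0.50 ± 0.13 (edgeR adjusted p = 0.0276), while GAS6, its bridging ligand, was at 0.54 ± 0.14 (edgeR adjusted p = 0.0262). Removing PIG-EMPTY replicate 2 ended the call of MERTK, leaving 1 lower, and removing PIG-EMPTY replicate 1 did so for GAS6, leaving 0 higher. Both also lost their calls with the DESeq2 Wald test (adjusted p = 0.208 for MERTK and 0.191 for GAS6) and with no filter on low counts. With upper-quartile scaling 4 fell.

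**Figure D4:**
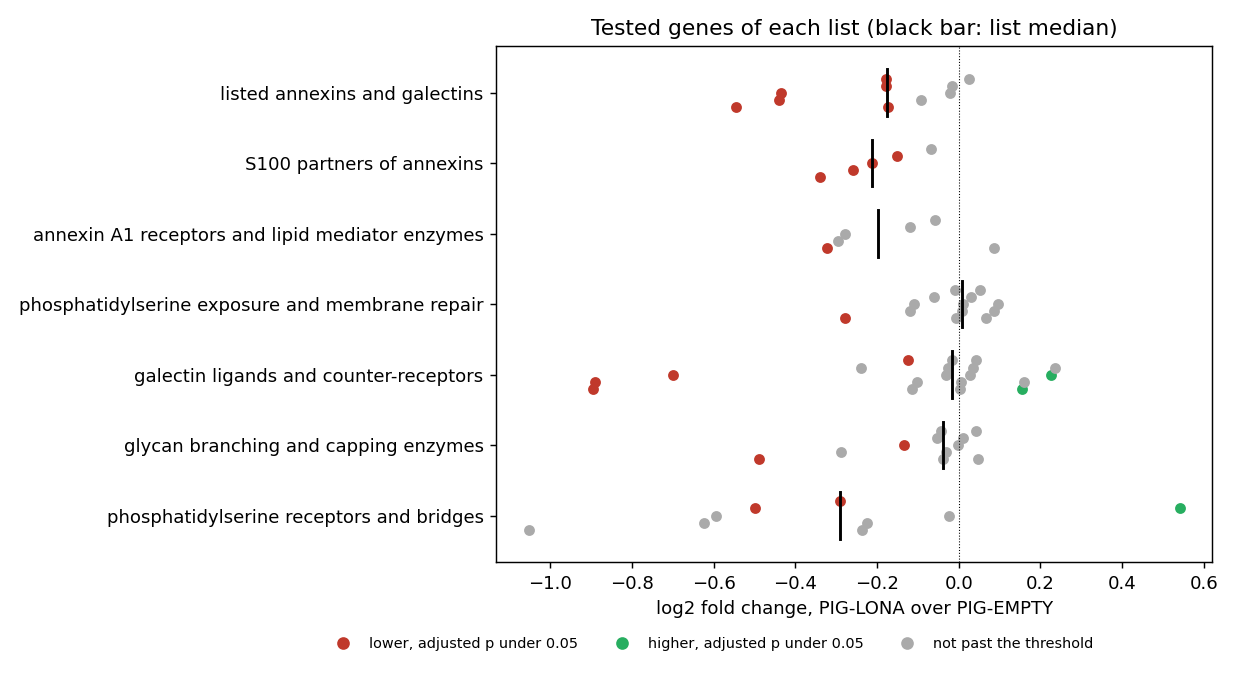
Log2 fold change of PIG-LONA over PIG-EMPTY (x axis) for each tested gene of 7 lists, with a black bar at the list median, red for lower and green for higher at an adjusted p under 0.05 and grey for the rest. In the S100 partner list, which includes the scaffold AHNAK, 4 of 5 points are red. The galectin ligands hold red and green points around a median of -0.02.

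The genes nearest to ANXA1 over the 4 libraries, by the root mean square distance of mean-centred log2 CPM among 6320 genes, were LRRC4 (0.0156), ANPEP (0.0392) and CDKN1A (0.0451). Nearest to LGALS1 were CTSH (0.0204), CDKN1A (0.0307) and MAP3K20 (0.0405). Their log2 fold changes ran from -0.57 for ANPEP to -0.41 for MAP3K20. With 4 libraries, this likeness mainly reflects equal fold changes.

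Total counts were 30181550 and 38358442 in PIG-LONA and 29819572 and 32350832 in PIG-EMPTY. Mitochondrial transcripts took 7.10% and 6.32% of the counts in PIG-LONA, against 6.80% and 6.61% in PIG-EMPTY. Of 9 tested myeloid markers, 6 were lower in PIG-LONA and 0 higher, against 3.50% and 2.93% of all tested genes. Their median log2 fold change was -0.53, against -0.18 for the 10 annexins and galectins. The 6 that fell were ANPEP, SPI1, CSF1R, ITGAM, CD14 and LYZ, of which ITGAM is also counted among the galectin ligands. The summed level of the 10 listed markers, most of it SPI1, CSF3R and CD33, was 532 and 522 CPM in PIG-LONA, against 603 and 596 CPM in PIG-EMPTY. The part of this difference in the annexin and galectin values was not tested, and in bulk RNA fewer cells of a type and less RNA per cell cannot be told apart. The line expressed part of the myeloid list. CD33, which was not called, had 98.4 and 99.9 CPM in PIG-LONA, against 100.2 and 104.5 CPM in PIG-EMPTY. Some other markers of the list were low. MPO, CSF1R and ITGAM were at or under 9.975 CPM in each library. FCGR3B had 0 and 0 reads in PIG-LONA and 2 and 1 in PIG-EMPTY. CD3D, CD3E, CD3G, MS4A1, HBB, HBA1 and EPCAM had 0 reads in every library. Summed levels of B cell, fibroblast and epithelial markers stayed at or under 1.48 CPM in each library, while CD4 and PECAM1, which monocytes also express, made up nearly all of the T cell and endothelial sums. PECAM1 was lower in PIG-LONA (log2 fold change -0.31 ± 0.06, edgeR adjusted p = 0.0019).

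**Figure D5:**
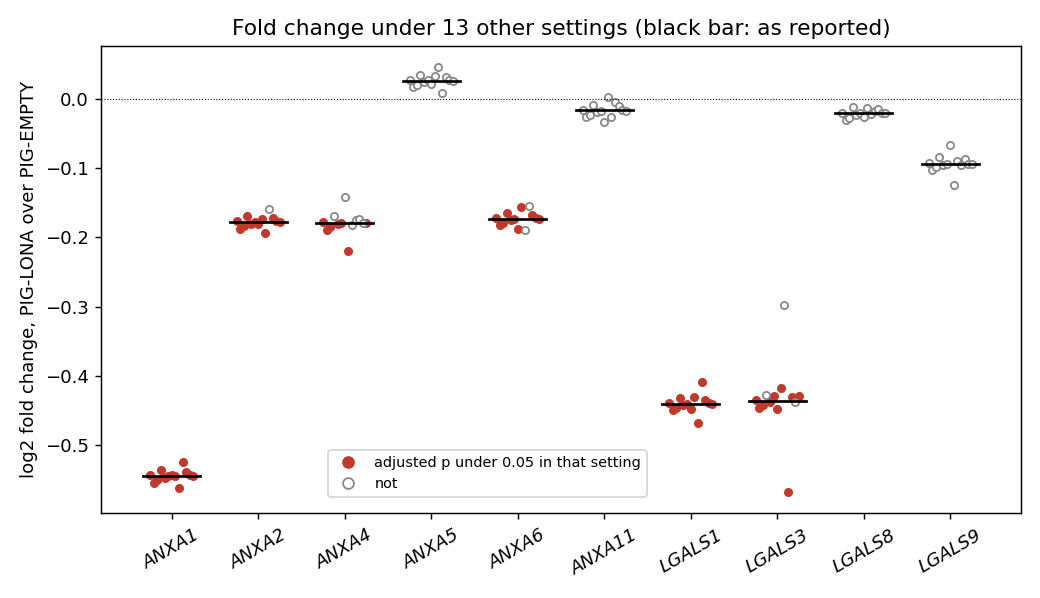
Log2 fold change of PIG-LONA over PIG-EMPTY (y axis) of each of the 10 genes under 13 other settings, with a black bar at the reported value, filled red points where the adjusted p was under 0.05 and open points where it was not. ANXA1 and LGALS1 are red under all 13, and ANXA4 is open under 6.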

How the data were processed

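The authors deposited unnormalized read counts for 4 libraries, by Ensembl gene, made with the tools that the submitters' processing notes list as FastQC 0.11.4, STAR 2.5 and HTSeq on hg38. Per the labels' protocols, libraries were made with a directional kit. Neither the annotation release nor the strand setting of the counting is given in the sources used here.

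Of 67062 rows, 60402 had a symbol. After filterByExpr (minimum count 10, minimum total 15), 15918 genes remained. They entered the two-sided quasi-likelihood test of edgeR 4.0.16 (R 4.3.3; legacy form off, TMM scaling, intercept and group), and p was adjusted by Benjamini-Hochberg across that whole set. CPM divide counts by the TMM-scaled total, and TPM use the union of GENCODE release 29 exons, which includes rarely used exons. The standard error is the log2 fold change divided by the square root of F. Replicates differed by more than counting noise (chi-square per gene 4.67 for PIG-LONA and 1.76 for PIG-EMPTY, where 1 would be noise), so no pair was taken for 1 library deposited in duplicate. With 2 against 2 libraries, an exact permutation test cannot go below p = 0.333 and was not used.

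The genes and lists were chosen with earlier results of these data known. Named were the listed genes, other family genes with a read, up to 4 called genes per list and the 3 nearest to ANXA1 and to LGALS1. HEATR1, ANXA2P2, ANXA2R, LGALS9C and AC015688.4 were added for overlap or naming. Promoters came from RefSeq. In simulated counts (15689 genes), the test recovered 47.8% of genes changed 1.2-fold and 73.1% of those changed 1.5-fold, with 4 false calls. These counts were drawn with the fitted biological coefficient of variation of 2.87%. The further spread of single genes was left out, so recovery and false calls in the real libraries may differ. Alternatives were other scalings (DESeq2 1.42.0 size factors, upper quartile, totals), the DESeq2 Wald test, limma-voom 3.58.1, other count filters, a replicate block, each library left out, no chromosome 6 genes, and adjusted p under 0.01.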

Additional observations from a re-analysis of the deposited data

How the results depend on the processing

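ANXA1 and LGALS1 stayed past the threshold under all 13 other settings, with log2 fold changes from -0.56 to -0.52 and from -0.47 to -0.41, and LGALS8, LGALS9 and ANXA5 stayed short of it in all 13. The number of the 10 genes called lower was 4 with the DESeq2 Wald test (where 2.08% of genes with an adjusted p were lower), 4 with no filter on low counts, and from 3 to 6 with each library left out. ANXA4 and LGALS3 were the calls lost with DESeq2 and with no filter. The number of all genes called was 1024, against 334 with no filter, 660 without chromosome 6 genes, 473 with DESeq2, 528 at adjusted p under 0.01, and from 466 to 2329 with each library left out. Genes called in the partner lists numbered 18, against 9 with no filter, 11 with DESeq2, 11 at adjusted p under 0.01, and from 11 to 22 with each library left out. The median over the 10 genes ranged from -0.19 to -0.16 with each library left out. Some values near 0 changed sign when a library was left out, and none was called: ANXA11 ran from -0.0336 to 0.0026, ANXA9 from -0.41 to 0.34, LGALSL from -0.2243 to 0.0805, HEATR1 from -0.034 to 0.0811 and ANXA2R from -0.042 to 0.0773. A group left with 1 library was assumed to vary like the other group. The number of all genes called moved both up and down with a library left out. The PIG-LONA libraries differed from each other more than the PIG-EMPTY libraries did (chi-square per gene 4.67 against 1.76). The cause of these changes was not tested. The labels number replicates alike in both groups, and the deviations of replicate 1 in the groups correlated at 0.0288 across genes. With 2 libraries per group, this value cannot tell whether libraries of the same number were prepared together. The main fit used no pairing. With the replicate block 1101 genes were called, 6 of the 10 were lower and 18 genes of the partner and other family lists were called.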
